A study of Rattus norvegicus with 24 samples.

Results

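The change in gene expression between postnatal day (PND) 7 and PND14 was followed in the hippocampus of rat pups whose mothers were given Aroclor 1254, which is a commercial blend of polychlorinated biphenyls. The groups compared were defined by their labels, and the comparison was chosen with earlier results of these data known. It set the 3 arrays of dosed hippocampus at PND14 against the 3 arrays of dosed hippocampus at PND7. These are 6 of the 24 arrays in the series. The series holds 8 groups of 3 arrays, which cross 2 tissues (hippocampus and cerebellum) with both ages and with maternal dosing. Dosed dams (12, 15 and 18) took Aroclor 1254 at 6 mg/kg/day by oral gavage in corn oil from gestation day 6 onwards, and undosed dams (1, 7 and 13) took the same route and vehicle with a dose of 0. All pups were Long Evans and labelled male. Each litter gave 1 pup at each age, so the PND7 and PND14 arrays of a dam come from 2 pups, and the 6 arrays rest on 3 litters. The undosed hippocampus of the same ages and the dosed cerebellum served as comparisons.

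The week measured here falls within the growth spurt of the rodent brain. Oligodendrocytes, the glial cells that wrap axons, pass from precursors to cells that make myelin, a membrane rich in cholesterol and in a small set of proteins such as myelin basic protein (Mbp). At the same time the granule neurons of the dentate gyrus are still being born, dendrites and synapses are being added, chloride transport changes so that the transmitter GABA becomes inhibitory, and astrocytes mature. Thyroid hormone sets the pace of much of this, and polychlorinated biphenyls are known for lowering circulating thyroid hormone in young rats and, in the case of dioxin-like congeners, for activating the aryl hydrocarbon receptor.

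Expression is given as the deposited log2 value of each probe set, and a change is the PND14 mean minus the PND7 mean on that scale with its standard error (SE) from limma, so that 1 is a 2-fold difference. A probe set or gene is called, and is said to have risen or fallen, where its limma p-value is under 0.05 after Benjamini-Hochberg adjustment, for which 10330 probe sets were tested. The values of 3 arrays are written in the order of dams 12, 15 and 18. A gene is represented by its probe set of highest mean, which gave 7474 genes. Bulk tissue was measured, so fewer cells of a type and less RNA per cell cannot be told apart anywhere in these data.

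The column medians of the 23 arrays used lay between 7.42 and 7.48. Hippocampal identity held by markers: the mean log2 level of 18 genes of hippocampal subfields was 8.72 to 9.26 in the 6 arrays against 7.66 to 7.84 in dosed cerebellum, and that of 11 cerebellar genes was 7.19 to 7.37 against 9.60 to 10.62. Of the 6 arrays none had high Xist, while 4 undosed arrays of the series, 2 of them hippocampal, did, against their label of male. Within the PND14 group the array of dam 15 stood apart. It correlated with dams 12 and 18 at r = 0.992 and 0.990, while those correlated with each other at r = 0.997, and values without it are given beside the results it moved most. The 3 PND7 arrays correlated at 0.993 with each other.

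Between PND7 and PND14, 1510 probe sets rose (14.6% of those tested) and 1300 fell (12.6%), or 1135 genes (15.2%) and 934 genes (12.5%). The median change of all probe sets was -0.018. Of the called probe sets 88 rose and 22 fell by more than 2-fold. The 3 PND14 arrays lay above all 3 PND7 arrays in 1936 probe sets (18.7%) and below them in 1922 (18.6%). With the dam as a block over the same arrays the number of called probe sets was 2873, against 2810 without it. A fit of the 6 arrays alone called 1687, and 1583 with the dam as a block.

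The largest rises were in genes of myelin and of pyramidal neurons. Mbp, a major structural protein of compact myelin, read 8.67, 9.25 and 9.06 at PND7 and 12.64, 11.42 and 12.88 at PND14. All PND14 arrays were above all PND7 arrays, and the PND14 array of dam 15 was the lowest of its group. The change was 3.32 ± 0.26 (adjusted p = 2.99e-08), a 10.0-fold rise. The other 11 of the 12 largest rises were Mobp and Mag (myelin proteins), Cldn11 (the tight junction protein of myelin) and Ugt8 (which makes the galactolipids of myelin), Camk2a (the alpha subunit of calcium/calmodulin kinase II) and Wfs1 (a membrane protein of the endoplasmic reticulum and a marker of CA1 pyramidal cells), Wipf3 (an actin regulator), Slc24a2 (a sodium, potassium and calcium exchanger), Gsta1 (a glutathione transferase), Alox15 (a lipoxygenase) and Cracdl. Their changes ran from 1.61 to 2.98.

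The largest falls were in genes of immature neurons, of matrix and of dividing cells. Tnc, which encodes tenascin C of the developing extracellular matrix, read 9.60, 9.60 and 9.91 at PND7 and 8.08, 6.74 and 7.63 at PND14, with no overlap of the groups. It fell by 2.22 (SE 0.29, adjusted p = 1.1e-05). The other 11 of the 12 largest falls were Dcx, Dpysl3 and Pafah1b3 (proteins of migrating and growing neurons, the last a subunit of an acetylhydrolase), Gpc2 (a glypican of developing axons), Mex3a (an RNA-binding protein), Zfta, Igfbpl1, Cdkn3 (a phosphatase of the cell cycle), Vcan (the proteoglycan versican), Cxcr4 (a chemokine receptor of migrating cells) and Lmnb1 (lamin B1). Their changes ran from -1.55 to -1.06.

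**Figure D1:**
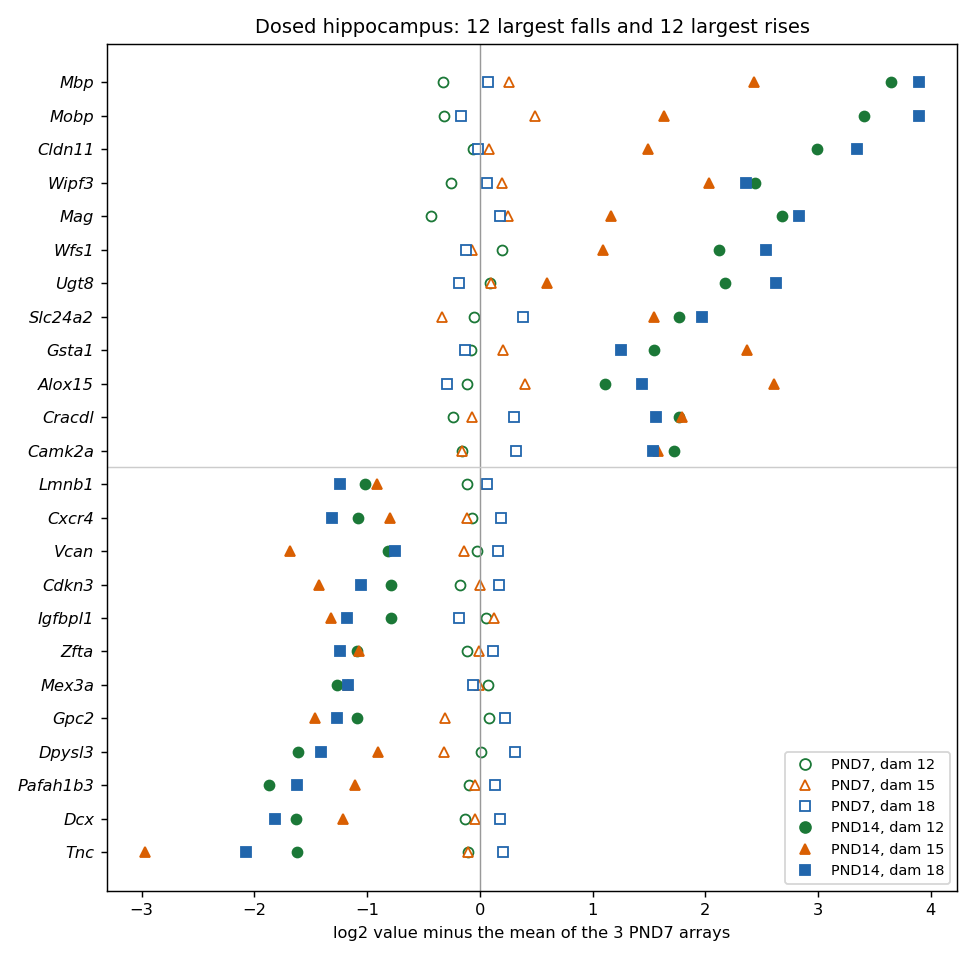
Log2 values of the 12 largest falls (lower rows) and the 12 largest rises (upper rows) in dosed hippocampus, each minus the mean of the 3 PND7 arrays. Open symbols are PND7 and filled symbols PND14, and the shape and colour give the dam. In the 5 myelin genes (Mbp, Mobp, Cldn11, Mag and Ugt8) and in Wfs1 the PND14 array of dam 15 (filled triangle) lies nearest to PND7, and in Alox15 and Gsta1 it lies farthest.

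The plot of the largest changes shows that filled and open symbols do not overlap in any of the 24 genes, which the naming rule required, and that the 3 dams are spread widely at PND14 in some of them.

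Myelin genes rose as a group. Of 22 genes of myelin and oligodendrocytes, 16 rose, 0 fell and 6 were not called, with a median change of 0.80, against -0.010 for all genes. Mobp, a protein of the major dense line of myelin, read 6.02, 6.83 and 6.17 at PND7 and 9.75, 7.98 and 10.23 at PND14. Cldn11 read 7.26, 7.39 and 7.29 at PND7 and 10.30, 8.81 and 10.66 at PND14. Their changes were 2.98 ± 0.36 and 2.61 ± 0.31.

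In both genes the PND14 values of dams 12 and 18 were close to each other and that of dam 15 was more than 1 unit below them. Mag, the myelin-associated glycoprotein that faces the axon, read 6.49, 7.17 and 7.10 at PND7 and 9.60, 8.08 and 9.75 at PND14 and changed by 2.22 ± 0.29 (adjusted p = 1.44e-05). Mog, a glycoprotein of the outermost myelin layer and a late marker, read 5.19, 5.32 and 5.19 at PND7 and 7.04, 5.46 and 7.37 at PND14. Its dam 15 array at PND14 was close to the PND7 arrays, and its change was 1.39 ± 0.32. Also higher were Cnp (1.21), Gpr37 (1.16), Mal (1.09), Bcas1 (0.99) and Pllp (0.97), together with the transcription factors Sox10 (0.56) and Myrf (0.55), which drive the oligodendrocyte programme. Not called were Olig1 (0.15), Aspa (0.18), Qdpr (-0.056), Erbb3 (-0.057), Cryab (0.28) and Evi2a (0.49). Among 6 markers of oligodendrocyte precursors 1 rose (Bmp4, 0.59) and 1 fell (Vcan, -1.08), near the 15.2% and 12.5% of all genes. Pdgfra (0.29) and Cspg4 (0.14) were not called. Bmp4 read 6.76, 6.62 and 6.67 at PND7 and 7.54, 6.60 and 7.68 at PND14, with the PND14 array of dam 15 below all PND7 arrays. Its change was 0.93 without that array, and it was not called without PND14 dam 12 (0.46) or dam 18 (0.39) or PND7 dam 15 (0.56) or dam 18 (0.58).

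The PND14 array of dam 15 was the lowest of its group in 19 of the 22 myelin genes, with a median distance of -0.88 from the mean of the other 2 dams. It was the lowest in 41.2% of all genes tested. Without it 19 of the 22 rose, the median change was 1.04 and that of Mbp was 3.77 ± 0.19. At PND7 the same dam's pup was not low in these genes (median distance 0.15). In the cerebellum the PND14 array of dam 15 had a median distance of -0.16 over the same 22 genes and was the lowest in 14.

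Genes of cholesterol synthesis went the other way from myelin. Of 19 tested, 0 rose, 8 fell and 11 were not called (median -0.24). Fdps, which makes farnesyl diphosphate, read 10.67, 10.74 and 10.73 at PND7 and 10.02, 9.43 and 10.09 at PND14 and fell by 0.87 (SE 0.14, adjusted p = 0.000114). Acat2, Idi1, Fdft1, Mvd, Sqle, Hsd17b7 and Lss fell too, from -0.73 to -0.41. The PND14 array of dam 15 was the lowest in 17 of the 19, with a median distance of -0.55. Without it 5 members were called, 4 lower and 1 higher, with a median of -0.13; Fdps still fell (-0.66 ± 0.12), and Acat2 (-0.48 ± 0.18, adjusted p = 0.0523), Idi1 (-0.45 ± 0.20, 0.117) and Fdft1 (-0.40 ± 0.19, 0.119) were not called. Fdft1 was also not called without PND7 dam 12 (adjusted p = 0.074), nor Idi1 without PND7 dam 18 (adjusted p = 0.0526).

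**Figure D2:**
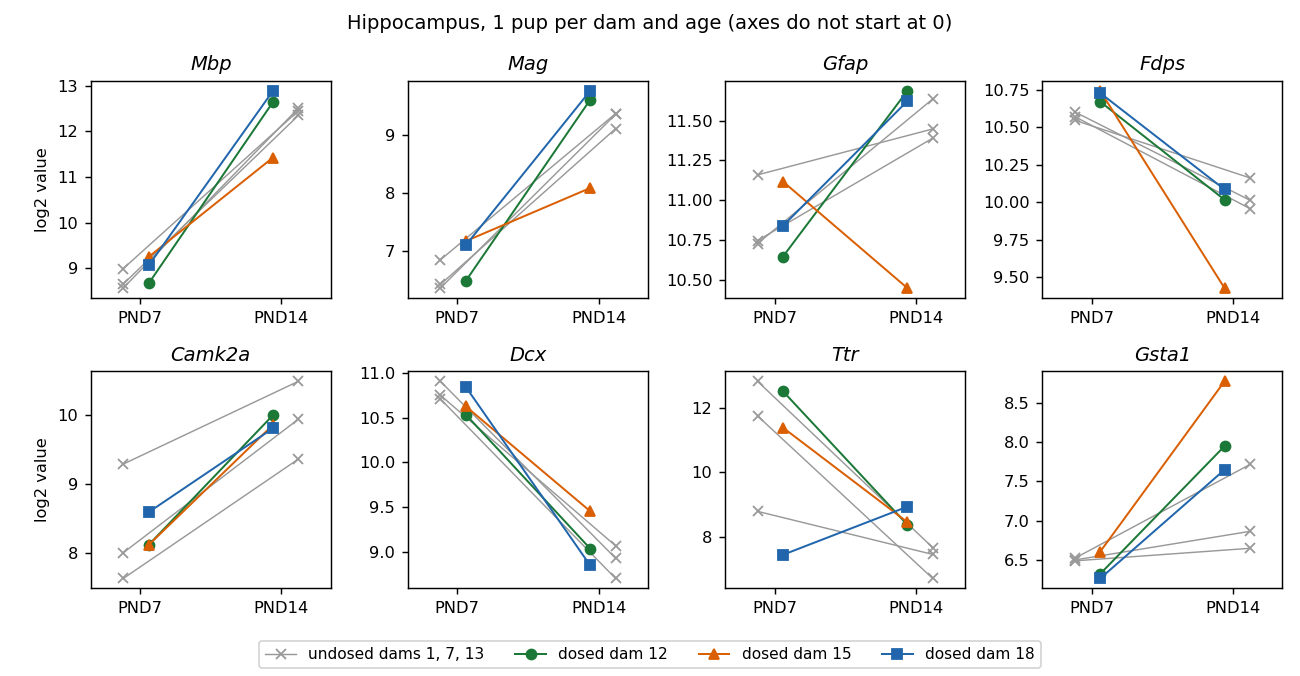
Log2 values of 8 genes in hippocampus, with 1 line per dam joining its PND7 pup to its PND14 pup; coloured lines are the dosed dams 12, 15 and 18 and grey lines the undosed dams 1, 7 and 13. Mbp, Mag and Camk2a are higher and Fdps and Dcx lower at PND14 in every dam, while for Gfap the line of dam 15 and for Ttr that of dam 18 runs against the others.

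The plot of 8 genes by dam sets the dosed pups beside the undosed ones, and the lines of dam 15 leave the rest at PND14 in Mbp, Mag, Gfap, Fdps and Gsta1 but not in Camk2a.

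Astrocyte genes rose. Of 30 tested, 17 rose, 1 fell and 12 were not called (median 0.44). Ntsr2, a neurotensin receptor of astrocytes, read 7.39, 7.61 and 7.55 at PND7 and 9.43, 8.88 and 9.05 at PND14 and changed by 1.61 ± 0.12. Itih3 read 8.57, 8.61 and 8.55 at PND7 and 9.97, 10.26 and 10.04 at PND14 and changed by 1.51 ± 0.13, and S100b, a calcium-binding protein, by 1.15 ± 0.13. Slc1a2 (0.94), the main glutamate transporter of mature astrocytes, Clu (0.88), Gja1 (0.66), the gap junction protein connexin 43, and Aldoc (0.63) rose as well. Fabp7, a fatty acid binding protein of radial glia and immature astrocytes, read 11.93, 11.81 and 12.31 at PND7 and 11.38, 10.28 and 11.30 at PND14 and fell by 1.03 (SE 0.23), or by 0.67 without the PND14 array of dam 15.

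Gfap, the intermediate filament of astrocytes, read 10.65, 11.12 and 10.84 at PND7 and 11.69, 10.45 and 11.62 at PND14. Dams 12 and 18 were higher at PND14 and dam 15 was lower than at PND7, so the groups overlapped and the change of 0.39 ± 0.24 was not called (adjusted p = 0.238). Without the PND14 array of dam 15 it was called (0.79 ± 0.18, adjusted p = 0.00268). For the water channel Aqp4 the change was 0.42 ± 0.18 (adjusted p = 0.0822) and, without that array, 0.59 ± 0.18 (adjusted p = 0.021).

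Of 18 microglial and immune genes 7 rose, 0 fell and 11 were not called (median 0.19). Ctss, a lysosomal protease, read 8.47, 9.15 and 8.02 at PND7 and 9.49, 10.69 and 9.24 at PND14, where dam 15 was the highest array of each age, and changed by 1.26 ± 0.32, or by 0.82 ± 0.29 without the PND14 array of dam 15. Csf1r, the receptor that keeps microglia alive, read 7.97, 7.99 and 7.90 at PND7 and 8.65, 8.92 and 8.49 at PND14 and changed by 0.74 ± 0.12. C1qa (0.83 ± 0.28, adjusted p = 0.0337) was not called without the PND14 array of dam 15 (0.48 ± 0.27, adjusted p = 0.205), nor without PND7 dam 12 or 18 (adjusted p = 0.099 and 0.0889). Cx3cr1 (-0.061), Aif1 (-0.17), Itgam (-0.096) and Tyrobp (0.013) were not called. Of 20 endothelial and mural genes 1 rose (Slc2a1, the glucose transporter of the blood-brain barrier and of glia, 0.66 ± 0.19) and 1 fell (Ramp2, -0.53 ± 0.096). Both counts were below the shares of all genes (15.2% and 12.5%). Slc2a1 read 8.96, 8.83 and 8.82 at PND7 and 9.23, 10.03 and 9.31 at PND14, with dam 15 the highest at PND14, and without that array it was not called (0.40 ± 0.18, adjusted p = 0.11).

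On the postsynaptic side of excitatory synapses, 21 of 35 genes rose, 0 fell and 14 were not called (median 0.34). Camk2a read 8.11, 8.11 and 8.59 at PND7 and 9.99, 9.85 and 9.80 at PND14 and changed by 1.61 ± 0.30 (adjusted p = 0.000451), a 3.06-fold rise with no overlap of the groups. Itpka, an inositol trisphosphate kinase of dendritic spines, read 8.56, 8.60 and 8.73 at PND7 and 10.13, 9.89 and 9.67 at PND14 and changed by 1.27 ± 0.12. Cnksr2 (1.21 ± 0.11) and the calcineurin subunit Ppp3r1 (0.84 ± 0.082) followed. The scaffold Dlg4 (PSD-95) changed by 0.36 ± 0.099 and the calmodulin-binding Nrgn (neurogranin) by 0.40 ± 0.11, which was not called without PND7 dam 12 (adjusted p = 0.0708). The other Dlg4 probe sets tested were not called (0.31 ± 0.14 and -0.14 ± 0.11). Dlg2 (0.004), Shank1 (0.021) and the adhesion proteins Nlgn1, Nlgn2 and Nlgn3 (0.082, -0.13 and -0.028) were not called.

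Of 23 glutamate receptor genes 6 rose, 4 fell and 13 were not called (median 0.21), against 15.2% of all genes that rose and 12.5% that fell. Grin1, the obligatory subunit of NMDA receptors, read 9.90, 10.18 and 10.21 at PND7 and 10.72, 10.68 and 10.91 at PND14 and changed by 0.67 ± 0.10 (adjusted p = 5.42e-05). Grin2c changed by 1.07 ± 0.27; it read 7.99, 8.61 and 8.14 at PND7 and 9.49, 8.80 and 9.66 at PND14, with dam 15 the lowest at PND14. The juvenile subunits Grin3a (-0.56) and Grin2d (-0.48) fell. Grin2a and Grin2b, the subunits whose balance shifts with age in forebrain, were not called: Grin2a read 7.39, 7.20 and 7.20 at PND7 and 7.27, 7.33 and 7.29 at PND14 (0.033 ± 0.097) and Grin2b 7.95, 7.80 and 7.78 at PND7 and 7.83, 7.73 and 7.74 at PND14 (-0.081 ± 0.12). Of the AMPA receptor genes Gria3 (0.84 ± 0.14) and Gria2 (0.27) rose, as did the auxiliary subunit Cacng3 (0.89 ± 0.15), and Gria1 (0.41, adjusted p = 0.0539) was not called. The other Gria3 probe set tested was not called (0.36 ± 0.14, adjusted p = 0.0643).

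On the presynaptic side 20 of 38 genes rose, 2 fell and 16 were not called (median 0.31). Vamp1, a vesicle SNARE protein, read 8.16, 8.48 and 8.44 at PND7 and 9.86, 9.81 and 9.99 at PND14 and changed by 1.53 ± 0.11 (adjusted p = 1.87e-08). Another Vamp1 probe set rose (1.00 ± 0.083), and its dimmest was not called (0.042 ± 0.11). Nsf, the ATPase that takes SNARE complexes apart, changed by 0.95 ± 0.11, Synpr by 0.95 ± 0.25, Snap25 by 0.49 ± 0.088, and Slc17a7, the vesicular glutamate transporter of hippocampal pyramidal cells, by 0.70. Syt4, a synaptotagmin abundant in young neurons, read 10.57, 10.25 and 10.58 at PND7 and 9.33, 9.87 and 9.36 at PND14 and fell by 0.94 (SE 0.12), and Unc13b fell by 0.35. Synpr was not called without PND7 dam 12 (adjusted p = 0.0576). Stx1a (-0.019) and Unc13a (-0.008) were not called.

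Of 21 genes of GABA and glycine transmission 7 rose, 1 fell and 13 were not called (median 0.27). Slc12a5 (KCC2), which pumps chloride out of neurons, read 11.29, 11.43 and 11.37 at PND7 and 11.91, 11.79 and 12.00 at PND14 and changed by 0.54 ± 0.11. Slc12a2 (NKCC1), which carries chloride in, read 8.84, 8.79 and 8.88 at PND7 and 9.19, 9.03 and 9.33 at PND14 and rose too (0.34 ± 0.093, adjusted p = 0.00931). Both transporters were higher at PND14, without overlap of the groups, and Slc12a2 was not called without PND14 dam 18 (0.27, adjusted p = 0.0623). Gad1 (0.44) and Gad2 (0.46), the enzymes that make GABA, Gabrb1 (0.46 ± 0.089) and Glrb (0.60 ± 0.16) rose, and Glra2, the fetal glycine receptor subunit, fell by 0.62 (SE 0.15). Glrb was not called without PND7 dam 15 (0.41, adjusted p = 0.0632). Gabra5 (0.29 ± 0.21) and Gabrd (0.35 ± 0.23), subunits of extrasynaptic receptors, had PND14 arrays above all PND7 arrays and were not called (adjusted p = 0.326 and 0.273).

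Of 11 interneuron genes 6 rose, 1 fell and 4 were not called (median 0.40). Pvalb, the calcium buffer of fast-spiking basket cells, read 5.94, 5.96 and 6.00 at PND7 and 7.64, 6.85 and 7.81 at PND14, with dam 15 the lowest at PND14, and changed by 1.47 ± 0.20 (adjusted p = 1.61e-05). Kcnc1, the potassium channel Kv3.1 of the same cells, changed by 0.83 ± 0.25, Vip by 0.58 ± 0.10 and Sst, which read 10.00, 10.09 and 10.45 at PND7 and 10.55, 10.55 and 10.64 at PND14, by 0.40 ± 0.099. Kcnc1 was not called without PND14 dam 12 or 18 or PND7 dam 15 (adjusted p = 0.0543, 0.10 and 0.0859). Reln, secreted by Cajal-Retzius cells and later by interneurons, fell by 0.53 (SE 0.10). Cck (-0.15), Npy (0.10), Calb2 (-0.15) and Tac1 (-0.063) were not called.

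Of 38 genes of voltage-gated and related ion channels 12 rose, 4 fell and 22 were not called (median 0.11, and 0.17 without the PND14 array of dam 15). Among all genes 15.2% rose and 12.5% fell. Kcnj6, a subunit of G-protein-gated potassium channels, read 7.58, 7.44 and 7.76 at PND7 and 8.82, 8.41 and 8.89 at PND14 and changed by 1.11 ± 0.12. The other Kcnj6 probe set tested was not called (-0.060 ± 0.11). Scn1a (0.81 ± 0.14), a sodium channel, rose and Scn3a (-0.50), its embryonic relative, fell. Of 40 calcium genes 17 rose, 1 fell and 22 were not called (median 0.21): Hpca (hippocalcin) changed by 1.02 ± 0.12, Vsnl1 by 0.78 ± 0.18 and Itpr1 by 0.78. Of 18 genes of hippocampal subfields 9 rose, 1 fell and 8 were not called (median 0.28). Wfs1 read 8.63, 8.36 and 8.31 at PND7 and 10.55, 9.52 and 10.97 at PND14 and changed by 1.92 ± 0.24, and without the PND14 array of dam 15 by 2.33 ± 0.18. Fibcd1 (CA1, 1.32 ± 0.15), Ccn3 (0.93 ± 0.21) and Calb1 (dentate granule and CA1 cells, 0.70 ± 0.086) rose. Prox1, the transcription factor of granule cells, read 8.34, 8.83 and 8.98 at PND7 and 8.86, 8.84 and 8.43 at PND14 and was not called (-0.009 ± 0.14).

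Genes of progenitors and newborn neurons fell. Of 30 tested 0 rose, 16 fell and 14 were not called (median -0.31). Dcx (doublecortin), a microtubule protein of migrating neurons, read 10.53, 10.62 and 10.84 at PND7 and 9.04, 9.46 and 8.85 at PND14 and fell by 1.55 (SE 0.13, adjusted p = 6.23e-08). Dpysl3 read 9.35, 9.01 and 9.64 at PND7 and 7.72, 8.43 and 7.92 at PND14 and fell by 1.31, and Dpysl5, read at 11.84, 11.85 and 11.96 at PND7 and 10.70, 11.14 and 10.64 at PND14, fell by 1.06; both belong to the collapsin response mediators of growing axons. Sox4 (-0.91), Sox11 (-0.72), Cd24 (-0.80), Nes (-0.59) and Tubb3 (-0.35) fell, while Neurod1 (-0.074), Neurod2 (-0.079), Pax6 (-0.16) and Hes5 (-0.58, adjusted p = 0.0542) were not called.

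Of 28 axon guidance genes 5 rose and 10 fell, against 15.2% and 12.5% of all genes, and 13 were not called. Their median was -0.14, and -0.068 without the PND14 array of dam 15. The 15 called members became 8 without PND14 dam 12 (3 higher and 5 lower) and 9 without PND7 dam 12 (2 higher and 7 lower). Plxna3 read 9.98, 10.01 and 10.13 at PND7 and 9.59, 9.20 and 9.08 at PND14 and fell by 0.75 (SE 0.13), and Neo1 fell by 0.61. Sema5a (0.64 ± 0.19) and Sema4d (0.57 ± 0.18) rose, but Sema5a was not called without PND14 dam 18 or PND7 dam 12 (adjusted p = 0.0654 and 0.107), nor Sema4d without any of PND14 dam 12 or 18 and PND7 dam 12 or 15 (0.0589 to 0.148). Of 39 cytoskeletal genes 7 rose and 7 fell (median -0.080), against 15.2% and 12.5% of all genes. Map6 fell at its probe set of highest mean (-0.88 ± 0.077). It rose at another (0.72 ± 0.11) and was not called at the last (-0.12 ± 0.14). Neurofilaments rose, with Nefl at 0.78 ± 0.11 and Nefh, which read 7.96, 9.09 and 8.94 at PND7 and 10.26, 8.87 and 10.51 at PND14, at 1.22 ± 0.29, and so did Tuba4a (1.11 ± 0.13), whereas Mapt (-0.66), Tubb5 (-0.39) and Stmn1 (-0.54) fell. For Nefh the PND14 array of dam 15 lay within the PND7 group, and without it the change was 1.72 ± 0.21. In a fit of the 6 arrays alone Nefh was not called (adjusted p = 0.0617). Of 16 matrix genes 2 rose and 4 fell, against 15.2% and 12.5% of all genes. Besides Tnc and Vcan the protease Mmp14 fell by 0.78 (SE 0.13), and Hapln1 (0.37) and Sparcl1 (0.44 ± 0.070) rose. Acan (-0.14) and Bcan (0.11), proteoglycans of the nets around fast-spiking neurons, were not called.

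Genes of the cell cycle fell: of 41 tested 0 rose, 25 fell and 16 were not called (median -0.41). Cdkn3 read 6.35, 6.53 and 6.70 at PND7 and 5.74, 5.10 and 5.48 at PND14 and fell by 1.09 (SE 0.20, adjusted p = 0.000467). Cks2, a small partner of cyclin-dependent kinases, read 6.87, 7.32 and 6.99 at PND7 and 6.61, 5.82 and 6.16 at PND14 and fell by 0.86 (SE 0.24). It was not called without the PND14 array of dam 15 (-0.67 ± 0.25, adjusted p = 0.0541) or the PND7 array of dam 15 (-0.73, adjusted p = 0.052). Racgap1 (-0.82 ± 0.15) acts in cytokinesis and Mcm6 (-0.77 ± 0.15) in the replication helicase, and Cdk1 (-0.64), Top2a (-0.64), Ccnb2 (-0.61) and Pcna (-0.44) fell too. Mki67, the usual marker of proliferating cells, read 6.28, 6.38 and 6.51 at PND7 and 6.17, 5.74 and 6.19 at PND14; its groups did not overlap, and its change of -0.36 ± 0.18 was not called (adjusted p = 0.149). Without the PND14 array of dam 15, the lowest of its group in 27 of the 41, 18 members fell and 0 rose.

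Promoters of the cell cycle genes that fell are shown because these genes moved together and because 2 short motifs are known from promoters of late cell cycle genes, the CCAAT box and the cell cycle homology region (CHR, TTTGAA). In the 250 bases before the gene start in RefSeq (GRCr8 build), with both strands searched, 22 of the 25 genes had an entry. CCAAT was found in 17 of the 22, against 34.0% of all promoters in the table and 36.0% of those of the genes tested. TTTGAA was found in 9 of the 22, against 16.2% and 9.43%. Both were present in 8 (Cdkn3, Cks2, Spc25, Kif22, Cdk1, Top2a, Ccnb2 and Cks1b), against 5.87% and 3.81%. The E2F motif TTTGGCGC or TTTCGCGC was found in 6 of the 22, against 0.636% and 1.18%. The strings are descriptions of these windows, and binding was not measured. The cell cycle genes that did not fall were not counted apart, so these shares cannot be tied to the fall. In the 4 promoters printed here, the 2 with the largest fall among the 8 and the 2 best known, capitals mark CCAAT and the CHR on either strand, which do not overlap, and no other motif.
Cdkn3 (chr15:22502136-22502385, plus strand): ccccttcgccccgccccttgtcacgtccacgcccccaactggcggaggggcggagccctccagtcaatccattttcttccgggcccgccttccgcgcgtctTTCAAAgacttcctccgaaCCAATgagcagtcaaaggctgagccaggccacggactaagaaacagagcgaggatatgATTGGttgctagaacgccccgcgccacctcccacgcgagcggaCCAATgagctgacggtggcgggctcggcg
Cks2 (chr17:13727520-13727769, minus strand): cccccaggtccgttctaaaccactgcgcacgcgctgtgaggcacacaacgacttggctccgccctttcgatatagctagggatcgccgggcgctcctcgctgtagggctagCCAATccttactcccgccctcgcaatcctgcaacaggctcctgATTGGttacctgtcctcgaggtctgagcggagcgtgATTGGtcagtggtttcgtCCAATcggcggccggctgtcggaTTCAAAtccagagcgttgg
Cdk1 (chr20:19265043-19265292, plus strand): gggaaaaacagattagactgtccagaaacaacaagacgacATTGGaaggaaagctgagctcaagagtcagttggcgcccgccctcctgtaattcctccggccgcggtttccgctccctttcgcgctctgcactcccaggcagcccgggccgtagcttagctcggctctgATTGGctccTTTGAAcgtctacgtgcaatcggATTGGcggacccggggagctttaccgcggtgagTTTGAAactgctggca
Top2a (chr10:84473094-84473343, minus strand): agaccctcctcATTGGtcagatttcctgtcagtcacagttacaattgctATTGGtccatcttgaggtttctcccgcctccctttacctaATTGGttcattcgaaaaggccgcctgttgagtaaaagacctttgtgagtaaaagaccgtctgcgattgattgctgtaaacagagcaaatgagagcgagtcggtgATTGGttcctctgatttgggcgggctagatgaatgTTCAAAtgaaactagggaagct
The TTTGAA or reverse complement nearest to the gene start begins 19, 16 and 22 bases before it in Cks2, Cdk1 and Top2a and 149 bases before it in Cdkn3. By the same search CCAAT was found in 5 of the 6 promoters of fallen cholesterol genes that had an entry, in 6 of 22 of fallen ribosomal protein genes and in 1 of 12 of risen myelin genes, and TTTGAA in 1, 1 and 0 of them. The sterol motif TCACNCCAC was found in 0 of the 6 cholesterol promoters (0.974% of all promoters) and the cyclic AMP motif TGACGTCA in 1 of the 22 cell cycle promoters (1.59% of all).

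Of 36 ribosomal protein genes 0 rose, 24 fell and 12 were not called (median -0.27). Rpl12 read 11.17, 11.14 and 11.24 at PND7 and 10.57, 10.80 and 10.51 at PND14 and fell by 0.56 (SE 0.085, adjusted p = 6.56e-05), and Rps15, Rpl34 and Rpl7 fell by 0.47, 0.45 and 0.45. The other Rpl7 probe set tested was not called (-0.19 ± 0.11). The PND14 array of dam 15 was the highest of its group in 34 of the 36, against 38.5% of all genes, and it lay nearest to the PND7 arrays in these 4 genes. Without that array 28 fell (median -0.35). Without that of dam 18, 15 fell. A fit of the 6 arrays alone called 12, and 8 with the dam as a block.

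Of 35 genes of glycolysis, pyruvate and ketone use 20 rose, 2 fell and 13 were not called (median 0.28). The 22 called members became 14, all higher, without PND14 dam 18. Eno2, the neuronal enolase, read 10.05, 9.93 and 10.29 at PND7 and 10.92, 10.95 and 11.12 at PND14 and changed by 0.91 ± 0.11. Pdk2 (0.75 ± 0.099), which restrains pyruvate dehydrogenase, Pgam1 (0.66 ± 0.088), Pdha1 (0.52) and Slc2a3 (0.37), the neuronal glucose transporter, rose. Acat1 (-0.38), which acts in ketone breakdown, fell. Of 64 genes of oxidative phosphorylation 16 rose, 0 fell and 48 were not called (median 0.18). Uqcr11 changed by 0.72 ± 0.14 and Sdha by 0.51 ± 0.068. That count was 10 after quantile normalization (9 higher and 1 lower), 4 in a fit of the 6 arrays alone, 3 there with the dam as a block, and 8 to 18 when any of the 6 arrays was left out; the lowest, 8, 9 and 10, came without PND14 dam 12, PND7 dam 12 and PND14 dam 18. Of 41 chaperone genes 4 rose and 5 fell, a share near the 12.5% of all genes that fell, with a median of -0.098 and, without the PND14 array of dam 15, 0.047. The falls were 1 without PND14 dam 18, without PND7 dam 18, without the arrays of high Xist and in a fit of the 6 arrays alone, and 11 after quantile normalization. The 5 were the chaperonin subunits Cct4 (-0.42 ± 0.077), Cct2 (-0.33), Cct5 (-0.24) and Tcp1 (-0.25), together with St13 (-0.26). They were named after their values were seen.

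Thyroid hormone targets were a mixed list that shares its largest members with myelin. Of 33 tested 13 rose, 2 fell and 18 were not called (median 0.14). The PND14 array of dam 15 was the lowest of its group in 23 of the 33, and without it 14 rose, 2 fell and the median was 0.31. Klf9, a transcription factor induced directly by thyroid hormone and by glucocorticoids, read 8.65, 9.05 and 8.82 at PND7 and 10.31, 10.37 and 10.29 at PND14 and changed by 1.48 ± 0.13 (adjusted p = 6.23e-08). Here dam 15 was level with the other dams at PND14. Hr, another direct target, read 7.75, 7.64 and 7.53 at PND7 and 7.90, 7.36 and 7.90 at PND14 and was not called (0.078 ± 0.22, adjusted p = 0.834). Thra was not called (-0.074), and Thrb was below the filter on low values, with means of 5.73 and 5.64 at its brighter probe set.

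Of 16 genes of the aryl hydrocarbon and xenobiotic response 2 rose, 2 fell and 12 were not called (median -0.083, and -0.16 without the PND14 array of dam 15). Both counts were near the shares of all genes that rose (15.2%) and fell (12.5%). Gsta1 read 6.33, 6.61 and 6.27 at PND7 and 7.95, 8.77 and 7.65 at PND14 and changed by 1.72 ± 0.30 (adjusted p = 0.000243); the groups did not overlap and dam 15 was the highest at both ages. Srxn1, a repair enzyme induced by oxidative stress, changed by 0.89 ± 0.10. The 2 falls were Cyp1a2 (-0.39) and Txnrd1 (-0.21 ± 0.076, adjusted p = 0.049). Txnrd1 was not called without the PND14 array of dam 15 (-0.20 ± 0.087, adjusted p = 0.103). Cyp1b1, induced through the aryl hydrocarbon receptor, read 8.16, 8.42 and 8.41 at PND7 and 8.14, 8.43 and 7.96 at PND14 and was not called (-0.15 ± 0.14), Cyp1a1 was below the filter, and Ahr (-0.12) and Nqo1 (0.34) were not called. The PND14 array of dam 15 was the highest of its group in 14 of the 16, with a median distance of 0.31. Alox15 read 7.56, 8.07 and 7.38 at PND7 and 8.78, 10.28 and 9.11 at PND14, also with dam 15 on top, and its change of 1.72 ± 0.51 (adjusted p = 0.0166) was not called without that array (1.27 ± 0.54, adjusted p = 0.0876), nor without PND7 dam 12 or 18 (adjusted p = 0.0513 and 0.0547).

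Of 20 immediate early genes, which report neuronal activity, 7 rose, 1 fell and 12 were not called (median 0.28). The 8 called members became 4, 5 and 4 without PND14 dam 12, PND14 dam 18 and PND7 dam 18. Egr1 read 8.74, 8.73 and 8.89 at PND7 and 10.26, 9.40 and 10.26 at PND14 and changed by 1.18 ± 0.23. Vgf (0.71 ± 0.16), Arc (0.63 ± 0.18) and Egr4 (0.61 ± 0.18) rose, and in Arc and Egr4 the PND14 array of dam 15 lay within the PND7 group. With the dam as a block in the 6 arrays Arc was not called (adjusted p = 0.0563), nor was it without PND14 dam 12 (0.39, adjusted p = 0.0913) or PND7 dam 18 (adjusted p = 0.0556). Egr4 was not called without PND14 dam 12 or 18 or PND7 dam 18 (adjusted p = 0.072, 0.117 and 0.0792). Bdnf was below the filter. Of 18 glucocorticoid and clock genes 8 rose, 0 fell and 10 were not called (median 0.38): Bhlhe41 (1.00 ± 0.11) and Dbp (0.84 ± 0.097) belong to the circadian clock, and Nr3c2 (0.67 ± 0.14) is the mineralocorticoid receptor. Without the PND14 array of dam 15, 5 of them rose.

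Genes of tissues that border the hippocampus varied between arrays. Of 30 meningeal and fibroblast genes 1 rose and 6 fell, against 15.2% and 12.5% of all genes, and 23 were not called (median -0.25). The 7 called members became 3 without PND14 dam 18, 3 without PND7 dam 18, 4 without PND7 dam 12 and 3 in a fit of the 6 arrays alone, and one array left out gave 3 to 10. Col1a1, a collagen of fibroblasts, read 8.80, 8.08 and 9.20 at PND7 and 8.35, 7.79 and 7.80 at PND14, with overlap, and changed by -0.71 ± 0.23 (adjusted p = 0.0277). That call was lost without PND14 dam 15 or 18 (adjusted p = 0.0884 and 0.101), without PND7 dam 12 (0.088) or dam 18 (-0.46, 0.162), without the arrays of high Xist (0.0504) and in a fit of the 6 arrays alone (0.0767). Col1a2 (-0.58 ± 0.26, adjusted p = 0.0969) was not called, and was with the dam as a block in the 6 arrays (adjusted p = 0.0328) and without PND14 dam 12 or PND7 dam 15 (0.0459 and 0.0321). The other probe set of each gene gave the opposite result. That of Col1a2 fell (-0.66 ± 0.21, adjusted p = 0.0251), and that of Col1a1 was not called (-0.26 ± 0.18, adjusted p = 0.289). The summed log2 level of the list was 13.48 to 13.94 at PND7 and 13.31 to 13.76 at PND14. Of 11 choroid plexus genes 1 rose and 2 fell, against 15.2% and 12.5% of all genes. Ttr (transthyretin), the defining product of choroid plexus, read 12.53, 11.39 and 7.44 at PND7 and 8.37, 8.45 and 8.93 at PND14, so that 2 PND7 arrays were far above all others and the change of -1.87 ± 1.42 was not called (adjusted p = 0.35). The summed choroid plexus level was 13.17, 12.50 and 11.59 at PND7 and 11.42 to 11.58 at PND14. Its part in other changes was not tested.

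Of 9 red cell genes with 1 symbol 0 were called. Outside this list, both alpha globin probe sets that carry several symbols rose, without overlap of the groups. Their changes were 0.67 ± 0.20 (adjusted p = 0.0147) and 0.60 ± 0.20 (adjusted p = 0.03). Hbb (beta globin) read 11.58, 11.81 and 11.14 at PND7 and 11.91, 12.83 and 11.87 at PND14 and changed by 0.70 ± 0.30 (adjusted p = 0.0952), with no overlap and with dam 15 on top. With the dam as a block Hbb was called (adjusted p = 0.0106 over the 23 arrays). The summed red cell level was 12.19 to 12.61 at PND7 and 12.64, 13.38 and 12.65 at PND14.

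**Figure D3:**
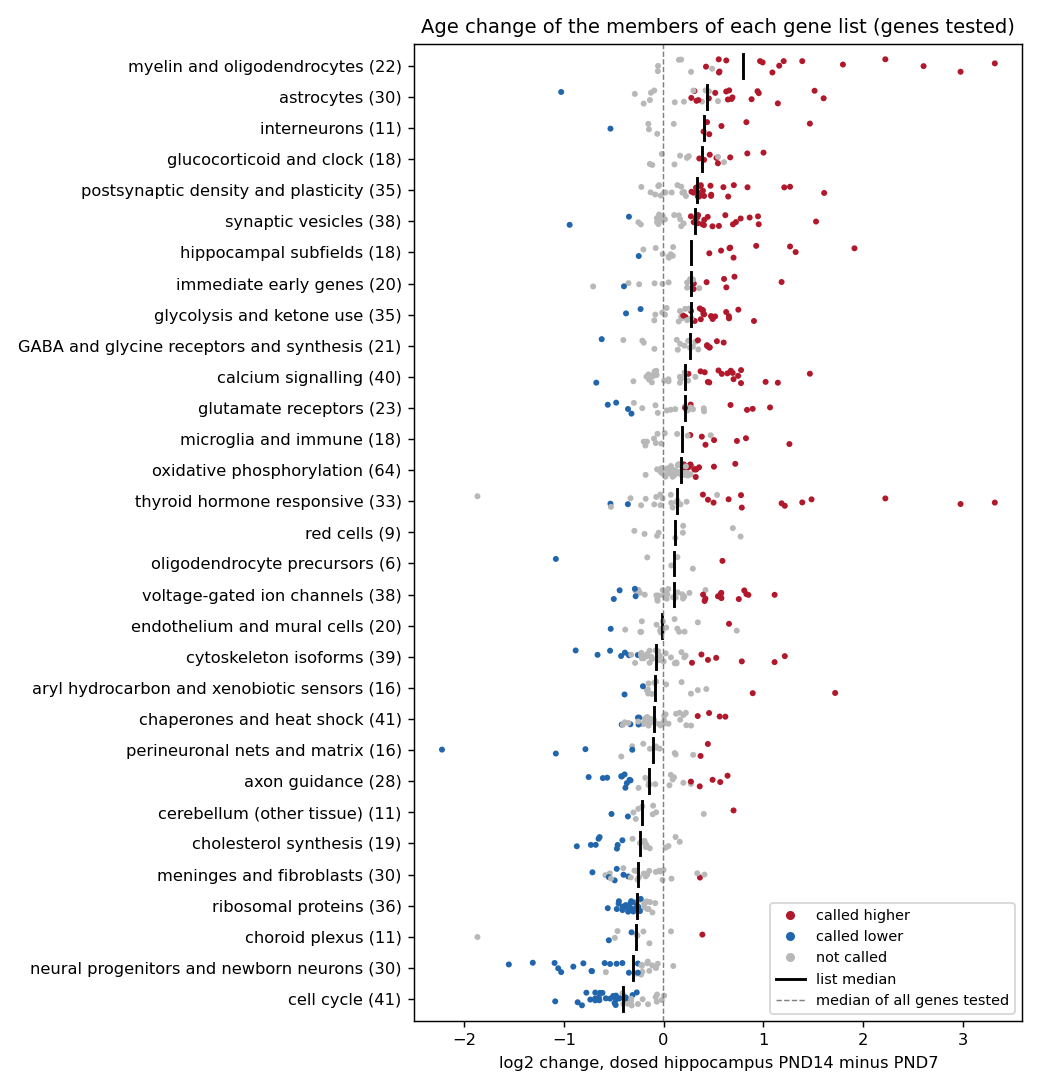
Log2 change between PND7 and PND14 in dosed hippocampus for the tested members of the 31 gene lists, ordered by list median (black bar), with the number of members in parentheses. Red points rose, blue points fell and grey points were not called, and the dashed line is the median of all genes; myelin has the highest median (0.80) and the cell cycle the lowest (-0.41).

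The plot of the gene lists shows that called members of the myelin, postsynaptic, microglial, glucocorticoid and oxidative lists were all higher, that called members of the cell cycle, progenitor, cholesterol and ribosomal lists were all lower, and that most other lists held both.

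Undosed hippocampus gave the same age step without Aroclor 1254. In the undosed arrays 1343 probe sets rose (13.0%) and 1802 fell (17.4%) between the same ages, or 13.2% and 17.0% of genes. The 2 comparisons share no array, but both come from 1 fit with a shared estimate of the spread, so their calls are not independent. Of the 1510 rises in dosed pups 1397 had the same direction in undosed pups and 921 were called there, which is 61.0% of the dosed and 68.6% of the undosed rises. Of the 1300 falls 1129 had the same direction and 804 were called, 61.8% of the dosed and 44.6% of the undosed falls. The share of all probe sets with the same direction in both comparisons was not counted. Across the 10330 probe sets the 2 age changes had r = 0.76, given as a description since probe sets are not independent. Mbp rose by 3.70 in undosed pups against 3.32 in dosed pups, Camk2a by 1.62 against 1.61, and Dcx changed by -1.89 against -1.55. The difference of the age changes was -0.37 ± 0.37 for Mbp (adjusted p = 0.667), -0.010 ± 0.42 for Camk2a (adjusted p = 0.995) and 0.33 ± 0.19 for Dcx (adjusted p = 0.413).

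The difference of the 2 age changes was called for 3 probe sets (0.0290% of those tested), all with a more positive age change in dosed pups. Of the 10330 tested, 1500 had an unadjusted limma p under 0.05, so a difference that was not called does not show equal age changes. 2 of the 3 called probe sets carry the symbols of both alpha globin genes (Hba-a2 and Hba-a1), so no single gene can be named. The first read 12.56, 12.96 and 12.38 at PND7 and 13.21, 13.59 and 13.13 at PND14 in dosed pups and, for dams 1, 7 and 13, 13.12, 13.34 and 13.06 at PND7 and 12.41, 11.88 and 12.32 at PND14 in undosed pups. It changed by 0.67 in dosed and -0.97 in undosed pups, a difference of 1.64 ± 0.28 (adjusted p = 0.0258). The second had a difference of 1.68 ± 0.28 (adjusted p = 0.0258), and Hbb one of 2.04 ± 0.43 that was not called (adjusted p = 0.0928). The difference for Hbb was called with the dam as a block (adjusted p = 0.00125 over the 23 arrays and 0.00594 within the 12) and with only the hippocampus arrays (0.0374). In the undosed arrays the summed red cell level was 12.72 to 13.04 at PND7 and 11.73 to 12.14 at PND14. The part of blood in these differences was not tested.

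The third probe set belongs to Slc25a27, a mitochondrial carrier of neurons. It read 7.37, 7.49 and 7.55 at PND7 and 7.34, 7.45 and 7.54 at PND14 in dosed pups and 8.19, 7.92 and 8.10 at PND7 and 7.19, 7.32 and 6.99 at PND14 in undosed pups, and it fell in undosed pups (-0.90) and was not called in dosed pups (-0.023). The difference was 0.88 ± 0.15 (adjusted p = 0.0258). The other 2 probe sets of Slc25a27 did not follow it, with differences of 0.37 and 0.069 that were not called. The number of calls changed with the choice of arrays: leaving out any of the 12 hippocampus arrays in turn gave 0 to 17 calls, with 0 without dosed PND14 dam 15 or 18, dosed PND7 dam 12, undosed PND14 dam 13 or undosed PND7 dam 1 or 7, and 17 without dosed PND7 dam 18. The dam as a block over the 23 arrays gave 8 and within the 12 arrays 11, and leaving out the 4 arrays of high Xist gave 0. The next smallest p-values belonged to Apob (-0.57 ± 0.11, adjusted p = 0.054), Slc4a10 (0.89 ± 0.18), Socs6 (0.66 ± 0.13), Dcn (0.80 ± 0.16), Ppp1r1b (0.92 ± 0.19), Lhx2 (0.83 ± 0.18) and Qpct (1.15 ± 0.25), none of them called. Slc4a10, a bicarbonate transporter of neurons and choroid plexus, read 7.71, 7.45 and 7.55 at PND7 and 8.62, 8.89 and 8.85 at PND14 in dosed pups, where it rose (1.22), and 8.42, 8.42 and 8.00 at PND7 and 8.64, 8.73 and 8.43 at PND14 in undosed pups. It was called with the dam as a block over the 23 arrays (adjusted p = 0.0181).

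**Figure D4:**
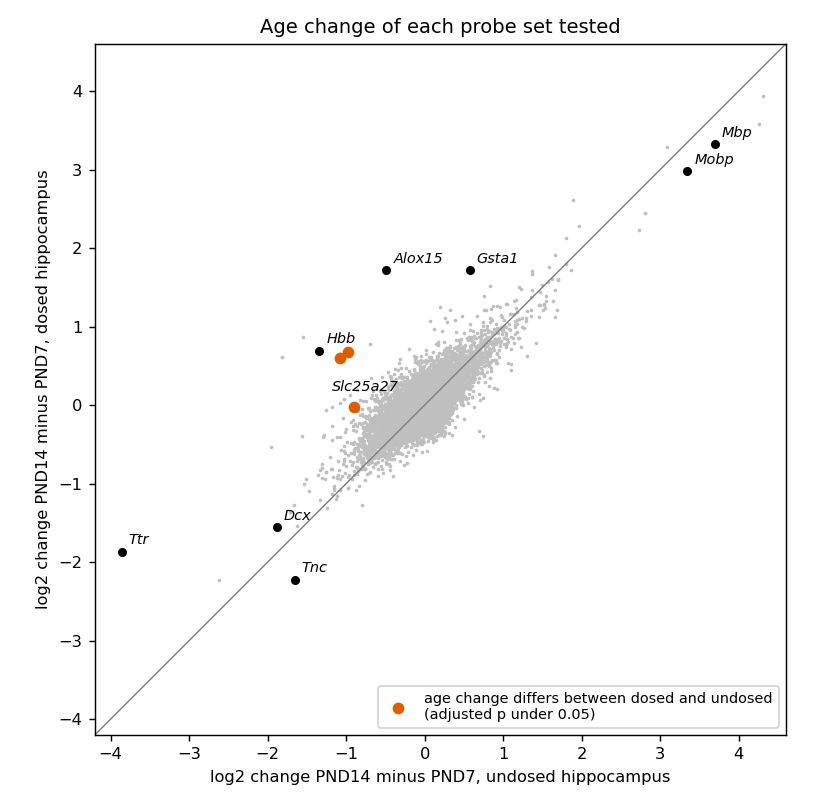
Log2 change between PND7 and PND14 of each of the 10330 probe sets tested, in undosed hippocampus (horizontal) and dosed hippocampus (vertical), with the line of equal change. Orange points are the 3 probe sets whose age change differed (2 of alpha globin and 1 of Slc25a27), black points are named genes, and most points lie along the line.

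The plot of both age changes places Mbp, Mobp and Dcx near the line of equal change, and Alox15, Gsta1, Hbb and Ttr above it; the differences for these 4 were 2.21 ± 0.72, 1.15 ± 0.42, 2.04 ± 0.43 and 1.99 ± 2.01. None of the 4 was called in the fit over 23 arrays without the block; that of Hbb was called under the settings given above.

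The same age step in dosed cerebellum differed for 655 probe sets that changed more positively in hippocampus (6.34%) and 580 that changed more negatively (5.61%), or 6.78% and 5.16% of genes. In the 12 arrays compared alone 612 were called, and 661 with the dam as a block. Among the named genes, Fibcd1 (2.54 ± 0.21), Wipf3 (2.30 ± 0.19), Cracdl (1.78 ± 0.16) and Cldn10 (1.54 ± 0.14) rose in hippocampus and had a more positive change there. Mbp differed by 1.88 ± 0.37 (adjusted p = 0.00163): its PND7 mean was 8.99 in hippocampus and 11.60 in cerebellum, and its PND14 mean in cerebellum was 13.04. The highest values of any probe set on those cerebellum arrays at PND14 were 13.57, 14.03 and 13.50. Whether a limit of the scale held the cerebellar value down was not tested. Slc1a6 (-2.34 ± 0.16), a Purkinje cell glutamate transporter, Pvalb (-2.55 ± 0.28), Syt4 (-2.39 ± 0.17), Il16 (-1.91 ± 0.14) and Pdcd2 (-1.53 ± 0.13) changed more negatively. Of the 41 cell cycle genes 28 had a more positive change in hippocampus and 0 a more negative one, with a median difference of 0.74. Dcx fell more in hippocampus (-1.38 ± 0.19, adjusted p = 4.13e-05). Of the 22 myelin genes 2 differed in the positive and 1 in the negative direction, with a median difference of 0.053.

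The PND14 array of dam 15 was compared with those of dams 12 and 18 list by list, as a description with no test. In both tissues it was low in cholesterol synthesis (lowest in 17 of 19 genes in hippocampus and 18 of 19 in cerebellum) and in the cell cycle (27 and 35 of 41), and high in ribosomal proteins (highest in 34 and 27 of 36), in the aryl hydrocarbon and xenobiotic list (14 and 13 of 16) and in microglial genes (11 and 14 of 18). Its summed red cell level was the highest of its group in both tissues, at 13.38 against 12.64 and 12.65 in hippocampus and 14.24 against 13.09 and 13.00 in cerebellum. The myelin list was low mainly in hippocampus (median distance -0.88, and -0.16 in cerebellum), and the difference between tissues was not tested. At PND7 the pup of the same dam had median distances between -0.17 and 0.15 over all lists. With 1 pup per litter and age, the pup, its litter and its RNA preparation cannot be told apart.

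**Figure D5:**
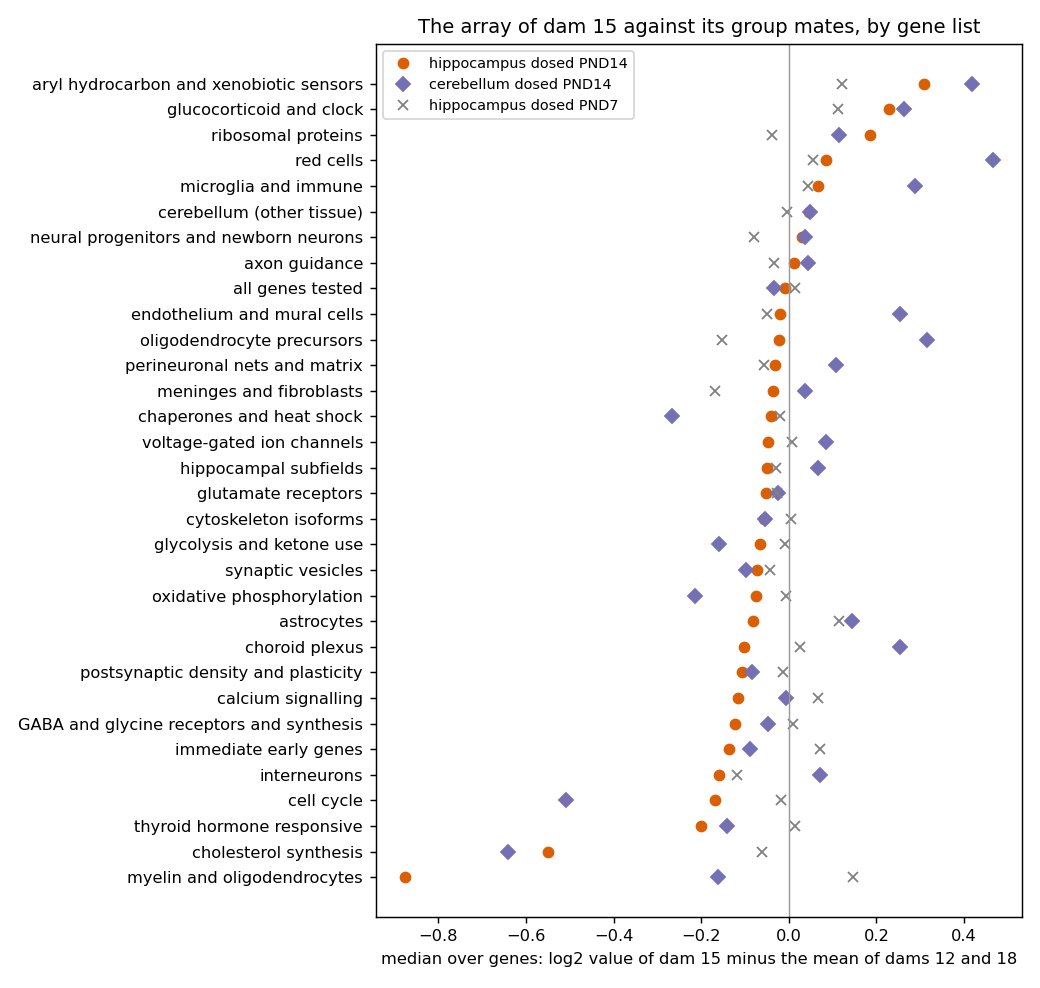
Median over the tested genes of each list of the log2 value of the array of dam 15 minus the mean of dams 12 and 18, for dosed hippocampus at PND14 (orange circles), dosed cerebellum at PND14 (purple diamonds) and dosed hippocampus at PND7 (grey crosses). Myelin (-0.88) and cholesterol synthesis (-0.55) are the lowest in hippocampus at PND14, and the aryl hydrocarbon and xenobiotic list (0.31) the highest.

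The plot of distances of dam 15 shows the circles and diamonds on the same side of 0 for cholesterol synthesis, the cell cycle, ribosomal proteins and xenobiotic genes, with the crosses of PND7 nearer to 0 in all 4.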

How the data were processed

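Total RNA of hippocampus and cerebellum was labelled as biotinylated cRNA and hybridised to Affymetrix rat arrays, per the labels' protocols. The deposited values of 15923 probe sets were read as log2 from their range, and the sources used here do not give how the authors corrected, normalized and summarised them. No further normalization was applied, since the medians of the 23 arrays used lay within 0.2. The array with a median above 7.7 (undosed cerebellum, PND14, dam 13) was left out. 57 control probe sets and those not above an array's 40th percentile in at least 3 arrays were removed. limma 3.58.1 (R 4.3.3) fitted 1 mean per group, with Benjamini-Hochberg adjustment of its p-values. The fit was tested on simulated data with independent noise in each array. That simulation held no litter structure and no outlying array, so it does not bear on either. Alternatives changed the normalization, filter, variance prior, arrays and block. The labels name the dam of each pup, which pairs arrays by litter; deviations of same-dam arrays correlated at -0.032, -0.0095 and -0.011 in dosed hippocampus. Named genes are the 12 largest rises and 12 largest falls without overlap, up to 4 largest called members of each list, a fixed set and the 8 smallest p-values of each difference; other genes were named after their values were seen. The comparison, members and lists were chosen with earlier results of these data known. Promoters came from RefSeq (GRCr8), and figures were drawn with matplotlib 3.10.9 in Python 3.11.15.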

Additional observations from a re-analysis of the deposited data

Results flagged for a closer look

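The age change of dosed hippocampus differed from that of undosed hippocampus in 3 probe sets by limma's test of the difference (adjusted p under 0.05): both alpha globin probe sets that carry several symbols (1.64 and 1.68), and 1 of the 3 probe sets of Slc25a27 (0.88).

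The age change of dosed hippocampus differed from that of dosed cerebellum in 1235 probe sets by the same test. Among the named genes the difference, hippocampus minus cerebellum, was positive for Fibcd1 (2.54), Wipf3 (2.30), Mbp (1.88), Cracdl (1.78), Cldn10 (1.54), Camk2a (1.47), Mki67 (1.38), Nrgn (0.98) and Sst (0.50). It was negative for Pvalb (-2.55), Syt4 (-2.39), Slc1a6 (-2.34), Gabrd (-1.92), Il16 (-1.91), Pdcd2 (-1.53), Hr (-1.48), Dcx (-1.38) and Snap25 (-0.50). Gabrd, Hr, Mki67 and Pdcd2 were not called in hippocampus itself.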

How the results depend on the processing

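The 2810 calls of dosed hippocampus became 1687 with only the arrays compared, 631 with all arrays of the series, and 1583 with the dam as a replicate block within the arrays compared. One array left out gave 2072 to 2616. Here and below, the setting with all arrays adds the left-out array, of median 7.91, to the fit and its spread without normalization. The 3 calls against undosed hippocampus became 14 with quantile normalization, 10 with no filter, 9 with only the hippocampus arrays or the arrays compared, 0 with all arrays or without the arrays of high Xist, 8 with the replicate block over the 23 arrays and 11 within the arrays compared; one array left out gave 0 to 17. The 1235 calls against cerebellum became 612 with only the arrays compared, 156 with all arrays (25.0% higher against 53.0%) and 661 with the replicate block within the arrays compared; one array left out gave 930 to 1398. The 3145 calls of undosed hippocampus became 925 with all arrays and 1899 without the arrays of high Xist; one array left out gave 2345 to 2667. Of calls for named genes, the block within the arrays compared lost Arc (adjusted p = 0.0563), Ndufb9 (0.0679) and Txnrd1 (0.193) and gained Col1a2 (0.0328) and Hbb (0.0066). Leaving out 1 array turned the sign of Hr (range -0.014 to 0.26, negative also at -0.011), Lum (-0.14 to 0.26, also -0.037) and Prox1 (-0.20 to 0.13, also 0.046 and 0.12), which were not called in the main result. The causes were not tested. The precision is limited by 3 arrays a group, and probe sets near the filter have little signal.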
